A study of Mus musculus with 10 samples.

Results

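The 10 genes Fn1, Spp1, Tnc, Sparc, Postn, Thbs1, Thbs2, Tgfbi, Fbn1 and Eln encode secreted matrix proteins of the mouse bladder. They were taken by name, by a rule that uses no measured value although earlier results of these data were known, from the 55536 genes on which reads were counted. The data are RNA-seq counts from bladder tissue of C57BL/6 mice in 10 libraries, 4 of wild type (WT), 3 of OMD-/- and 3 of PRELP-/- (spelled PRLEP-/- in the genotype label). Osteomodulin (OMD) and PRELP are secreted proteins of the small leucine-rich proteoglycan family. Both knockouts are constitutive, with the coding exons replaced by a β-galactosidase gene that is read from the promoter of the lost gene, so the design takes the protein from every cell type and not from 1 chosen tissue. The labels give neither ages nor sexes, and they describe homogenised tissue, whereas the study's text speaks of isolated epithelia.

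Matricellular proteins are secreted into the matrix but serve less to build it than to change how cells attach to it and receive signals from it. Osteopontin (Spp1), tenascin-C (Tnc), SPARC, periostin (Postn), the thrombospondins (Thbs1, Thbs2) and the TGF-β-induced protein (Tgfbi) belong here, and fibronectin (Fn1) is the adhesive glycoprotein to which several of them bind. Elastic fibres, which let the bladder wall stretch and recoil, are made of a core of elastin (Eln) laid down on microfibrils of fibrillin-1 (Fbn1). In most organs these genes are transcribed mainly by fibroblasts and smooth muscle, while Spp1 is also a gene of activated macrophages.

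The genes lie on 8 chromosomes and do not form a cluster. In build GRCm38 (GENCODE vM21 annotation) Spp1 occupies chr5:104435118-104441050 on the plus strand with 8 merged exons, Tnc chr4:63959785-64047015 on the minus strand with 27, and Fbn1 chr2:125300594-125507993 on the minus strand with 65. The sequence upstream was at hand for 7 of the 10 genes, Spp1, Tnc, Sparc, Postn, Thbs2, Tgfbi and Fbn1, with 10 windows of 250 bases that end at an annotated RefSeq transcript start (RefSeq, GRCm38.p6). Fn1, Thbs1 and Eln were not covered. The 3 windows below are shown because they hold the letters TATAAA, the motif of a TATA box. In addition, Spp1 and Tnc rose in OMD-/- while Postn did not pass the test. Whether the letters act as a TATA box in any of them is not known. Capitals mark TATAAA or CCAAT on either strand. The windows are chr5:104434861-104435110 on the plus strand for Spp1, chr4:64047016-64047265 on the minus strand for Tnc, and chr3:54360857-54361106 on the plus strand for Postn, each written 5′ to 3′.
Spp1: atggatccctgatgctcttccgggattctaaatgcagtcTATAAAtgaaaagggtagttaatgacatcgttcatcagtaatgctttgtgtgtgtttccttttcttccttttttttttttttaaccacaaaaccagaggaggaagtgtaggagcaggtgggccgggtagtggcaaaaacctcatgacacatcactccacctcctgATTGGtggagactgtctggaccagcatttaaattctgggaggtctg
Tnc: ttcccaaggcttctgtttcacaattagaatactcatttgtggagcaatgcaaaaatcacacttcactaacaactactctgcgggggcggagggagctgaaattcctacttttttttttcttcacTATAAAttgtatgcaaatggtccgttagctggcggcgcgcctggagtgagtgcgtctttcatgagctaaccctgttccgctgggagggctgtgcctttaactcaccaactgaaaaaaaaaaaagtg
Postn: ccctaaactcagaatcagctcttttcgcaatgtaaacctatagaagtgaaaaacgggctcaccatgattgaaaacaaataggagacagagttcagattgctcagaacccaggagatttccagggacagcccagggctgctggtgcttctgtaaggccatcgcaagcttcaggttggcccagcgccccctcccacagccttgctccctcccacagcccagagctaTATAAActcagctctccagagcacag
The TATAAA lay 26 to 21 bases before the annotated start in Postn, 126 to 121 before it in Tnc and 211 to 206 before it in Spp1. Tnc has another window, for another annotated start, and there the match lay 205 to 200 bases before the start. The distance in Tnc thus depends on the start taken. A match on the other strand was also found in Thbs2. Of 32851 RefSeq promoters of the same length, 12.4% held this motif. The CCAAT box was found in Spp1 and Thbs2 and in 33.8% of all promoters. Neither TGANTCA, the core of an AP-1 site (6.75% of all promoters), nor GGAATG, the core of a TEAD site (12.6%), was found in any of the 10 windows. The motifs do not overlap one another in these windows, and a match is only a match of letters.

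Total counts ranged from 20391437 to 46269079 per library, and 3 counts corresponded to between 0.0598 and 0.17 CPM, the count scaled to a common library size. Library sizes were scaled by TMM, a normalisation that assumes most genes do not differ. Prelp stood at 215 to 317 CPM in WT and at 1.84 to 4.2 CPM in PRELP-/-. In OMD-/- it was at 772 to 826 CPM, above every WT library. Omd had 0 counts in each OMD-/- library but also only 0 to 12 in WT, so the Omd count is a weak check of the labels. Libraries stood apart within groups. PRELP-/- replicate 1 differed from its fellows by a chi-square per degree of freedom of 240 and 244, against 3.76 between replicates 2 and 3, OMD-/- replicate 1 by 26.6 and 29.1 against 3.2, and WT fell into the pairs 1 with 2 (12.4) and 3 with 4 (9.09) against 31.8 to 54.3 across them. No pair agreed within sampling noise. Genes of the Y chromosome summed to 120 to 192 CPM in WT replicates 1 and 2 and PRELP-/- replicate 1, to 18.3 to 19 CPM in OMD-/- replicate 1 and PRELP-/- replicates 2 and 3, and to 0.709 to 1.37 CPM in the other 4, so sex was not balanced between the groups and intermediate values were present. The labels do not tie libraries to animals, and the numbers of animals in the study's text differ from the numbers of libraries, being fewer for WT and more for OMD-/-. Some libraries may therefore share an animal or hold several, and the p-values measure only the spread between these libraries.

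Bladder cell types were present. The 9 urothelium markers summed to 11494 to 12634 CPM in WT. The uroplakin Upk1a was the highest of them at 2777 to 3351 CPM, and Krt14 the lowest at 0.306 to 0.576 CPM. Smooth muscle markers were measured in all libraries but at 337 to 1390 CPM in WT. The muscle gene Tagln was the lowest of them at 1.44 to 4.96 CPM. Myh11 (96.5 to 523 CPM) and Acta2 (125 to 383 CPM) were the highest. These genes were picked after their values were seen. Markers of the male accessory glands were at 0 in each library, and fat markers summed to at most 0.665 CPM.

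Per length of exon, the RNA levels of the 10 genes in WT spanned a wide range. Sparc, which encodes a collagen-binding protein, was the most abundant, at 206 ± 27.8 (SD, n = 4) RPKM (the CPM divided by the exon length in kilobases), and its level was above that of 98.9% of 13065 protein-coding genes with at least 1 CPM. Thbs2 (57.1 ± 4.18) and Tgfbi (56.1 ± 3.67 RPKM) followed, and their WT values overlapped. Thbs1 (34.2 ± 1.69), Tnc (32.8 ± 8.63) and Fn1 (32.2 ± 1.75 RPKM) came next, and no neighbours among them separated. Fbn1 stood at 5.97 ± 0.327, Postn at 3.56 ± 1.97 and Eln at 2.93 ± 0.586 RPKM, again with overlapping neighbours. The exon length merges all annotated transcripts of a gene (3 for Fbn1, 9 for Postn and 5 for Eln), so the order depends on the annotation. Spp1 was at the bottom with 0.211 ± 0.0449 RPKM, below every other member in each WT library and with only 6 to 21 counts per library. Of the exon bases of Spp1, 18.8% overlap Gm42793 on the same strand, which had a mean of 0 counts. Whether reads in that overlap were counted for Spp1 is not known. In OMD-/- the order at the top was Sparc (507 ± 40.3), Tgfbi (111 ± 4.51), Thbs2 (96 ± 0.964) and Fn1 (66.4 ± 6.96 RPKM, n = 3), each apart from the next. In PRELP-/- Sparc (396 ± 29 RPKM) was again apart from the rest, while Tgfbi, Thbs2, Fn1, Tnc and Thbs1 (103 ± 20.7 down to 29.5 ± 10.8 RPKM) ran into each other.

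**Figure D1:**
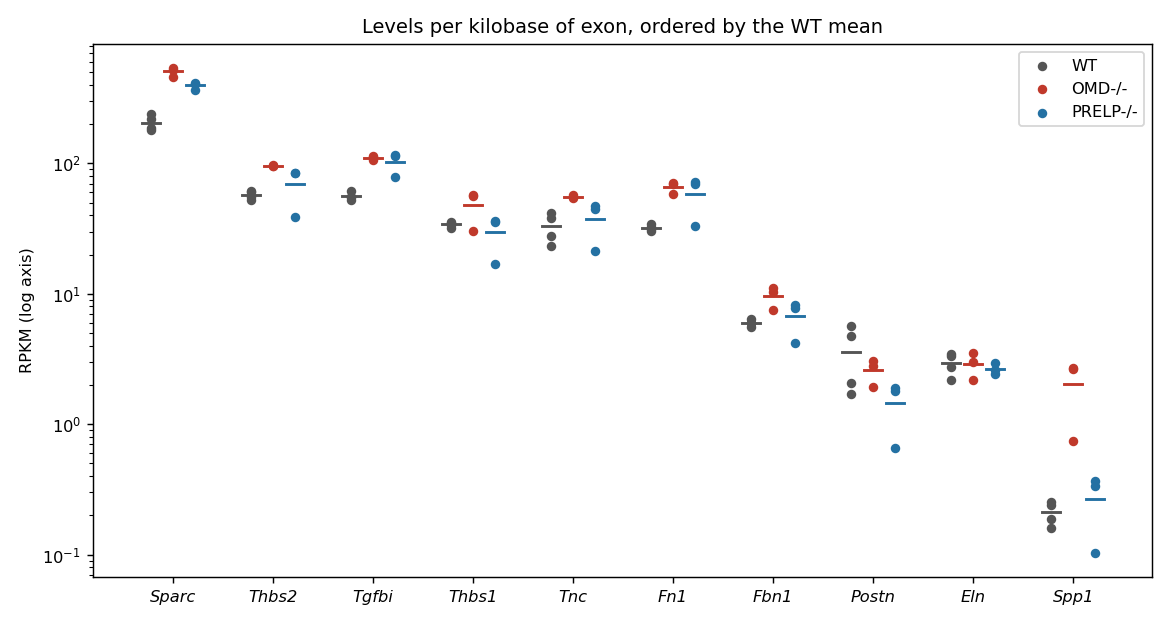
RPKM (vertical, log axis) of each gene in each library (points) with the group mean (line), for WT (n = 4), OMD-/- (n = 3) and PRELP-/- (n = 3), in the order of the WT mean. Sparc lay above every other member in all groups, and Spp1 had the lowest WT level.

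Of the 10 genes, 7 rose in OMD-/- against WT (Fn1, Spp1, Tnc, Sparc, Thbs2, Tgfbi and Fbn1), and none fell. In the quasi-likelihood fit of edgeR, with p adjusted after Benjamini and Hochberg over every tested gene, 29.4% of genes passed an adjusted p of 0.05 in this comparison and 14.3% passed as higher. The median log2 fold change of the 10 was 0.75 against -0.0002 over all 16647 tested genes. The same 7 genes had every OMD-/- library above every WT library, where 38.9% of all tested genes had groups that did not overlap in one direction or the other. With libraries that lay close together summed (WT 1 with 2 and 3 with 4, OMD-/- 2 with 3), an alternative chosen after seeing the data, 7 genes passed as higher. In that fit 624 of all 18310 tested genes passed as higher. In bulk tissue a greater number of cells of a type and more RNA per cell cannot be told apart.

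Sparc was at 899, 833, 703 and 678 CPM in WT replicates 1 to 4 and at 1747, 1981 and 2034 CPM in OMD-/-. All OMD-/- libraries were above all WT libraries. It rose by 1.30 ± 0.11 (SE) on the log2 scale (adjusted p = 3.55e-05, edgeR quasi-likelihood). Fibronectin, the adhesive ligand of integrins, was measured at 377, 370, 404 and 355 CPM in WT. In OMD-/- it stood at 682, 814 and 830 CPM, well clear of the narrow WT range. The increase of Fn1 was 1.04 ± 0.097 on the log2 scale (adjusted p = 5.09e-05, edgeR quasi-likelihood).

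Tgfbi, which encodes an adhesive protein named for its induction by TGF-β, had WT levels of 231, 210, 208 and 198 CPM. Its OMD-/- levels of 398, 429 and 425 CPM lay apart from them, the difference being 0.98 ± 0.082 on the log2 scale (adjusted p = 2.7e-05, edgeR quasi-likelihood). Thbs2, which encodes an inhibitor of vessel growth, was at 388, 365, 427 and 421 CPM in WT and at 673, 665 and 679 CPM in OMD-/-. The 3 OMD-/- values of Thbs2 were close to one another and above all WT values, a rise of 0.75 ± 0.087 (adjusted p = 0.0002, edgeR quasi-likelihood).

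Tenascin-C, a matrix protein of remodelling tissue that weakens cell attachment, varied already in WT. Tnc was at 217, 181, 323 and 299 CPM in WT and at 448, 424 and 426 CPM in OMD-/-. The OMD-/- libraries were the higher ones, and the spread in WT ran between replicates 1 and 2 on the one side and 3 and 4 on the other. The rise of Tnc was 0.76 ± 0.18 on the log2 scale (adjusted p = 0.011, edgeR quasi-likelihood), and its call was lost when all 3 groups were fitted together (adjusted p = 0.0824).

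Spp1 rose most in fold while remaining low in level. It had 21, 6, 7 and 9 counts in WT (0.419, 0.262, 0.31 and 0.399 CPM) and 26, 105 and 95 counts in OMD-/- (1.23, 4.45 and 4.34 CPM). Every OMD-/- library was above WT, but replicate 1 was at 0.279 of the mean of the other two. The log2 fold change was 3.23 ± 0.45 (adjusted p = 0.000618, edgeR quasi-likelihood), between 2.97 and 3.63 when single libraries were left out. The sum of the macrophage markers was 776 to 841 CPM in WT, 810 in OMD-/- replicate 1 and 1284 and 1307 in replicates 2 and 3. This sum was thus above WT in replicates 2 and 3 only. Its largest members in WT were Gpnmb (303 to 440 CPM) and Lyz2 (179 to 244 CPM), so it mostly follows these genes. Of the 10 markers 7 rose, where 14.3% of all tested genes passed as higher. Cd68, Adgre1, Csf1r, C1qa, C1qb and C1qc lay above WT in every OMD-/- library, and Lyz2, Gpnmb, Mrc1 and Trem2 overlapped WT. Lymphocyte markers summed to 6.5 to 10.9 CPM in WT and to 15.7, 70.2 and 72.3 CPM in OMD-/-, and 7 of the 8 rose. The part of these cells in the Spp1 result was not tested.

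Thbs1 and Postn did not pass the test in OMD-/-. Thbs1, which encodes an activator of latent TGF-β, was at 214, 204, 217 and 194 CPM in WT and at 186, 346 and 342 CPM in OMD-/-. OMD-/- replicate 1 lay below the WT range and the other two far above it. The log2 difference was 0.49 ± 0.19 (adjusted p = 0.077, edgeR quasi-likelihood), and without OMD-/- replicate 1 it was 0.74 (adjusted p = 0.00033). Postn, which encodes a protein that promotes collagen cross-linking, was at 18.1, 14.8, 49.5 and 41.5 CPM in WT and at 16.9, 26.7 and 24.4 CPM in OMD-/-. The OMD-/- values fell inside the WT range, which was split by replicate pairs (2.77-fold higher in WT 3 and 4 than in WT 1 and 2). The log2 difference of -0.44 ± 0.48 had an adjusted p of 0.533 (edgeR quasi-likelihood), but with the summed Y chromosome level as a covariate it was -0.79 (adjusted p = 0.00073). Smooth muscle markers were split in the same way, at 355 and 337 CPM in WT 1 and 2 and 1390 and 1225 CPM in WT 3 and 4, as was Tnc. They summed to 844, 419 and 432 CPM in OMD-/- and 275, 259 and 256 CPM in PRELP-/-. Against WT 0 of the 9 passed in either knockout, where 29.4% and 7.29% of all tested genes passed. The median log2 differences were -0.46 and -1.65. Of these 9 markers, 2 had a fold change above 0 in OMD-/- and 0 had one in PRELP-/-. Their part in the Postn and Tnc results was not tested.

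Of the elastic fibre genes themselves, Fbn1 passed the test and Eln did not. Fbn1 was at 71.9, 77.7, 72.1 and 68.1 CPM in WT and at 91.8, 125 and 133 CPM in OMD-/-. The groups did not overlap, and Fbn1 rose by 0.69 ± 0.12 (adjusted p = 0.00215, edgeR quasi-likelihood), a call lost when all 3 groups were fitted together (adjusted p = 0.0527). Of the exon bases of Fbn1, 20.1% overlap Gm9913 on the other strand, which had a mean of 2.7 counts. Eln was at 26.9, 28, 17.6 and 22.4 CPM in WT and at 17.5, 28.3 and 24.2 CPM in OMD-/-. Its values overlapped, with a difference of -0.02 ± 0.19 on the log2 scale and an interval from -0.44 to 0.40 (adjusted p = 0.94, edgeR quasi-likelihood). Total-count scaling instead of TMM shifts the median of all genes to -0.16 on the log2 scale in OMD-/- and to -0.20 in PRELP-/-. It called the same 7 genes in OMD-/-, and over all genes it gave 1256 higher and 4283 lower calls where TMM gave 2377 and 2522.

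**Figure D2:**
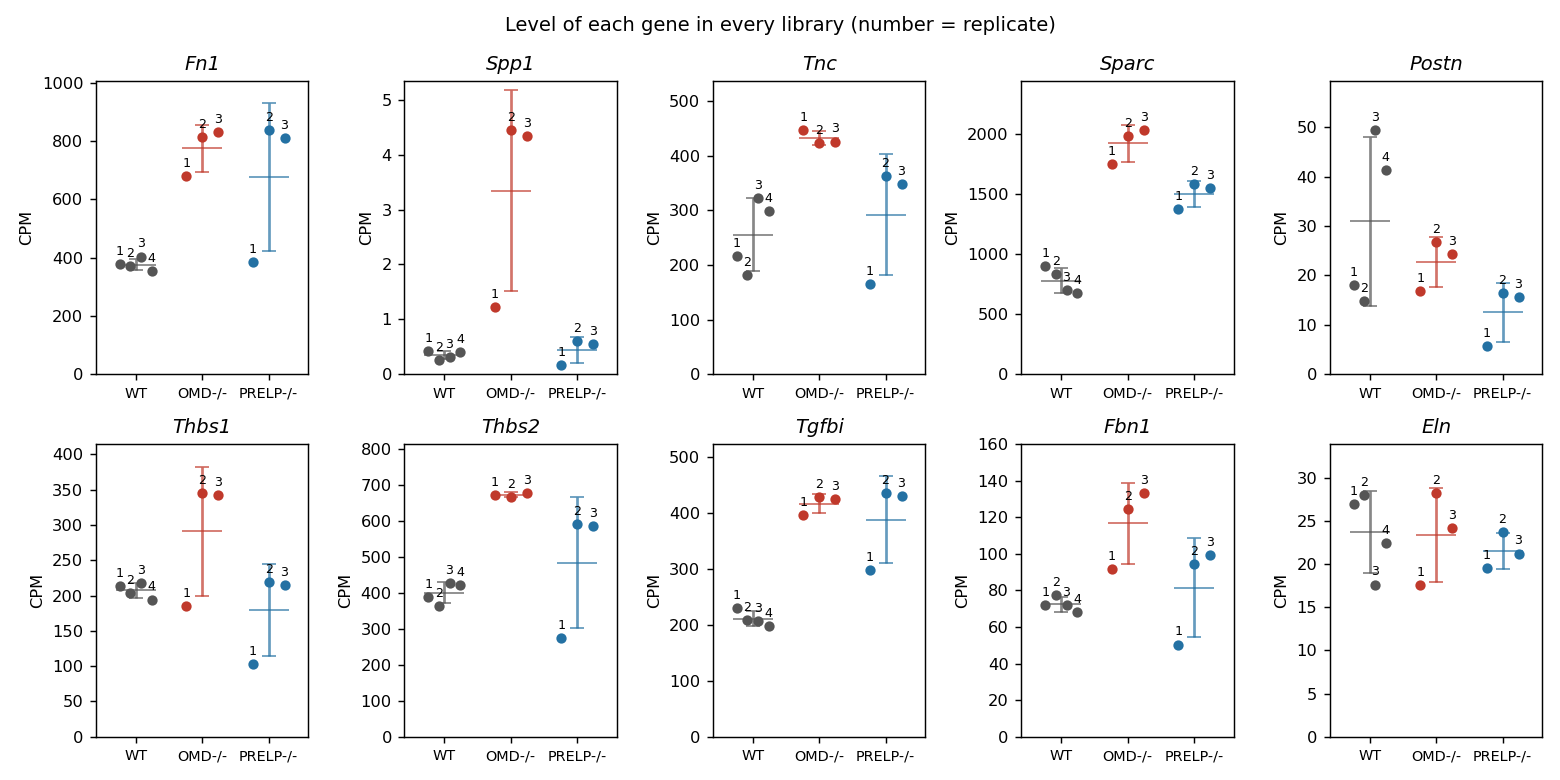
CPM (vertical, from 0, scale differs by panel) of each gene in each library (points, numbered by replicate) with the group mean and SD (bar), for WT (n = 4), OMD-/- (n = 3) and PRELP-/- (n = 3). The OMD-/- points lie above all WT points for 7 genes, and PRELP-/- replicate 1 is the lowest PRELP-/- library for all 10.

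Of the 9 genes tested in PRELP-/- against WT, Sparc and Tgfbi rose and none fell. Spp1 did not pass the low-count filter in this comparison, with 3, 15 and 12 counts in PRELP-/- (0.17, 0.601 and 0.551 CPM). By the same edgeR test 7.29% of all genes passed and 1.4% passed as higher, so most calls over all genes were lower (977 of 1209, and 1717 of 1772 under total-count scaling). Sparc and Tgfbi were also the 2 of the 10 genes whose groups did not overlap, against 30% of all tested genes in either direction. The median log2 fold change of the 9 genes was 0.18, against 0.02 over all 16581 genes.

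Sparc was at 1375, 1580 and 1547 CPM in PRELP-/-, above every WT library (678 to 899 CPM), and rose by 0.93 ± 0.17 on the log2 scale (adjusted p = 0.0159, edgeR quasi-likelihood). Tgfbi was at 299, 437 and 430 CPM, also above every WT library, and rose by 0.86 ± 0.17 (adjusted p = 0.0222, edgeR quasi-likelihood). The values of both were lowest in PRELP-/- replicate 1. Both calls depended on the libraries used. Only Sparc passed without WT replicate 1 (adjusted p = 0.0333), and neither passed without WT replicate 2, 3 or 4, or without PRELP-/- replicate 2 or 3 (adjusted p up to 0.0706 for Sparc and 0.0853 for Tgfbi). Tgfbi also failed under total-count scaling, and both failed with close libraries summed (adjusted p = 0.508 for Sparc and 0.52 for Tgfbi).

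In the edgeR fit of WT and PRELP-/- alone, the calls of Fn1, Thbs2 and Fbn1 turned on PRELP-/- replicate 1. Fn1 was at 386 CPM in PRELP-/- replicate 1, inside the WT range, and at 839 and 809 CPM in replicates 2 and 3. Its log2 difference from WT was 0.84 ± 0.26 (adjusted p = 0.0906, edgeR quasi-likelihood). With all libraries kept, Fn1 did pass with DESeq2 (adjusted p = 0.0196), limma-voom (5.29e-06) and edgeR on all 3 groups (0.0325). Thbs2 was at 274, 592 and 586 CPM and Fbn1 at 50.5, 94.6 and 99.3 CPM, replicate 1 being below all WT libraries and the other two above them in each case. Tnc was at 165, 364 and 348 CPM, in the same way. Their log2 differences were 0.26 for Thbs2, 0.16 for Fbn1 and 0.18 for Tnc, none of which passed (adjusted p = 0.56, 0.698 and 0.739, edgeR quasi-likelihood). With limma-voom on all libraries, Thbs2 (adjusted p = 0.00102) and Fbn1 (0.00265) passed and Tnc did not (0.0831). Relative to the mean of replicates 2 and 3, the 10 genes in PRELP-/- replicate 1 had a median log2 ratio of -1.08, against 0.02 over all genes tested. Sparc (-0.18) and Eln (-0.20) were the nearest to 0 of the 10.

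Without PRELP-/- replicate 1, 5 of the 10 genes rose: Fn1 by 1.14 (adjusted p = 7.18e-05), Tgfbi by 1.05 (0.000142), Sparc by 1.02 (0.000789), Thbs2 by 0.57 (0.00331) and Fbn1 by 0.43 on the log2 scale (0.00678, all edgeR quasi-likelihood). In that fit 22.2% of all tested genes passed. Spp1 was then tested, with a log2 difference of 0.71 and an adjusted p of 0.289. Replicate 1 also differed in other cell type markers: fibroblast markers summed to 10268 CPM in it against 20094 and 19666 CPM in replicates 2 and 3, urothelium markers to 26927 against 16468 and 15871, and erythroid markers to 474 against 69.6 and 63.1. Their part in the result was not tested.

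Thbs1 was at 104, 219 and 215 CPM in PRELP-/-, a log2 difference of -0.22 ± 0.25 from WT (adjusted p = 0.606, edgeR quasi-likelihood). Eln was at 19.6, 23.8 and 21.2 CPM, within the WT range, with a difference of -0.16 ± 0.19 (adjusted p = 0.62). Postn was at 5.68, 16.4 and 15.7 CPM, where WT replicates 3 and 4 were the high ones. Its difference of -1.30 ± 0.51 had an adjusted p of 0.149 (edgeR quasi-likelihood), and DESeq2 called it lower (adjusted p = 0.0434).

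**Figure D3:**
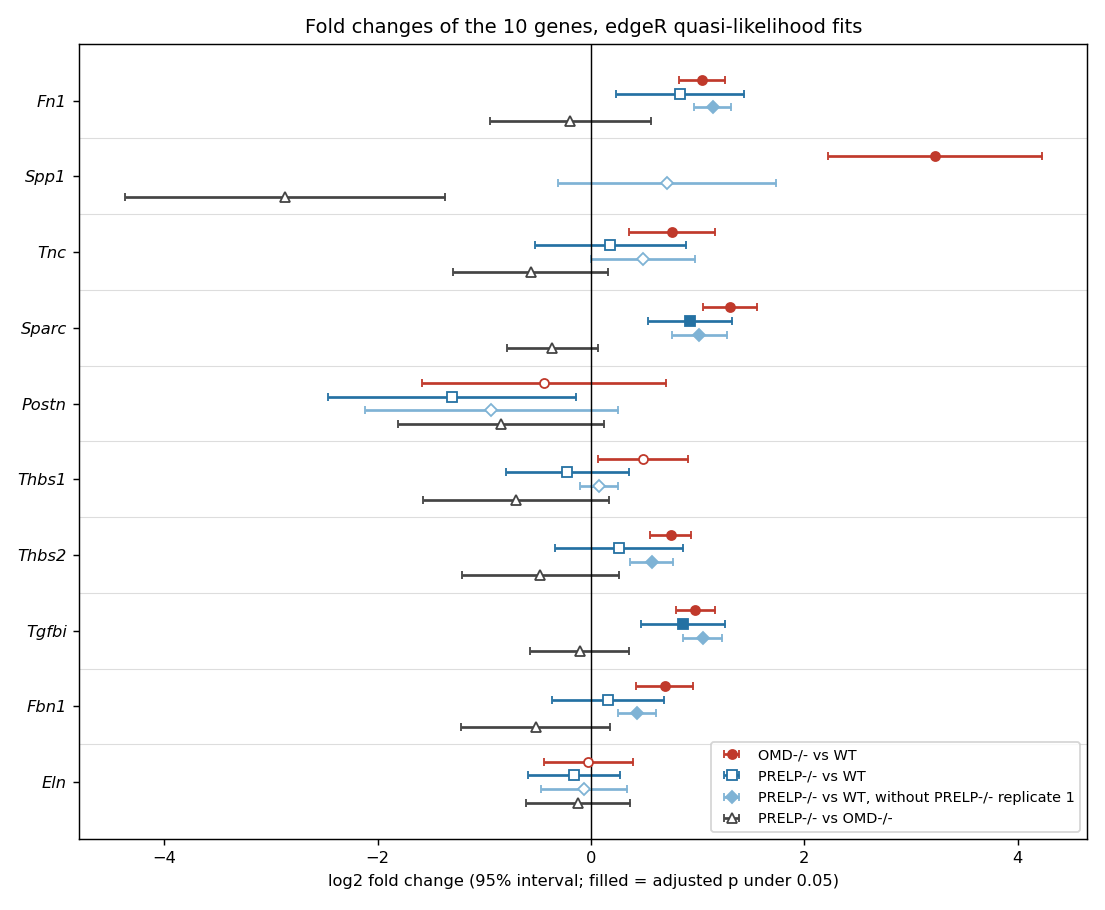
Log2 fold change (horizontal) with its 95% interval for each gene in 4 edgeR fits, the filled symbols having an adjusted p under 0.05. In OMD-/- against WT 7 genes are filled, in PRELP-/- against WT 2, without PRELP-/- replicate 1 there are 5, and between the knockouts there are 0.

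The direct comparison of the knockouts called none of the 10 genes, and 0.00633% of all tested genes passed by edgeR (1 gene, Prelp itself). At an unadjusted p under 0.05 there was 1 of the 10, Spp1. All 10 fold changes were below 0, with a median of -0.50 on the log2 scale. With the Y chromosome covariate 6 of the 10 were above 0 and the median was 0.10. The Y chromosome sums did not overlap between these groups (18.8 to 120 CPM in PRELP-/- and 0.914 to 18.3 CPM in OMD-/-). This covariate therefore nearly separates the groups, and no conclusion is drawn from the turned signs. For 5 genes, Spp1, Tnc, Sparc, Postn and Thbs2, every PRELP-/- library was below every OMD-/- library, where 15.1% of all genes had groups that did not overlap. Spp1 had a log2 difference of -2.87 ± 0.63 (interval -4.37 to -1.37, adjusted p = 0.69, edgeR quasi-likelihood). With the replicate number as a block the difference of Spp1 was -2.90, with an adjusted p of 0.0357. DESeq2 also called Spp1 (adjusted p = 0.00301), and limma-voom called Spp1, Postn, Sparc and Fbn1. Spp1 passed in no other alternative: leaving out single libraries gave adjusted p-values of 0.115 to 0.926, summing close libraries 0.85, and with the Y chromosome covariate the difference was -1.04 (adjusted p = 1). The intervals of the other 9 genes each included 0 in the edgeR fit, for instance -0.79 to 0.07 for Sparc and -0.61 to 0.37 for Eln. A gene that passed against WT in one knockout and not in the other is thus not shown to differ between them.

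Partners of the elastic fibre rose in OMD-/- with few exceptions. Of 20 genes for microfibril proteins, fibulins, latent TGF-β binding proteins and cross-linking enzymes of the lysyl oxidase family, 19 were tested in OMD-/- and 16 rose, with a list median of 0.75 on the log2 scale. Over all tested genes 14.3% passed as higher in OMD-/- and 1.4% in PRELP-/-. Fbln5, a fibulin that elastic fibre assembly needs, was at 157 ± 11.8 CPM in WT (n = 4) and 318 ± 7.89 in OMD-/- (n = 3), a rise of 1.02 (adjusted p = 1.99e-05, edgeR quasi-likelihood). Fbln1, another fibulin, stood at 574 ± 70.7 and 1386 ± 66 CPM, a rise of 1.27 (adjusted p = 2.44e-05, edgeR quasi-likelihood). Efemp2 (0.81) and Loxl2 (0.68), a fibulin and a cross-linking enzyme, rose as well. In PRELP-/- 3 of 19 rose, Efemp2 (0.83), Fbln5 (0.79) and the microfibril gene Mfap2 (0.68), with a median of 0.48. Elastin, the core of the fibre, passed in neither comparison.

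Of 20 other matricellular genes, 14 were tested. In OMD-/- 8 rose, where 14.3% of all tested genes passed as higher, none fell and the median was 0.59. Ccn1, an integrin ligand made by cells under stretch or serum, was at 1.73 ± 0.967 CPM in WT and 84.6 ± 35.9 in OMD-/-, a rise of 5.51 (adjusted p = 0.000463, edgeR quasi-likelihood). Ccn2 (1.99), Tnxb (0.80) and Smoc2 (0.56) were the others with the lowest adjusted p. Of 6 immediate early genes, 3 rose in OMD-/- and 1 fell, with sums of 215, 263 and 256 CPM against 210 to 233 CPM in WT, and their part in the Ccn1 and Ccn2 results was not tested. None of the 6 passed in PRELP-/-. In PRELP-/- 0 of 14 passed in edgeR, where 7.29% of all tested genes passed, while the list median was 0.34.

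Of 15 integrin chains and other receptors of these proteins, 8 rose in OMD-/-, with a median of 0.37. Over all tested genes 14.3% passed as higher in OMD-/-. Stab1, a scavenger receptor that takes up SPARC, rose by 1.03 on the log2 scale (adjusted p = 0.00166), Itga9, an integrin chain that binds tenascin-C and osteopontin, by 0.78 (0.00337), Cd44, a receptor of hyaluronan and osteopontin, by 0.51 (0.00195), and Itgav by 0.37 (0.00515, all edgeR quasi-likelihood). In PRELP-/- 0 of 15 passed, where 7.29% of all tested genes passed, and the median was 0.02.

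**Figure D4:**
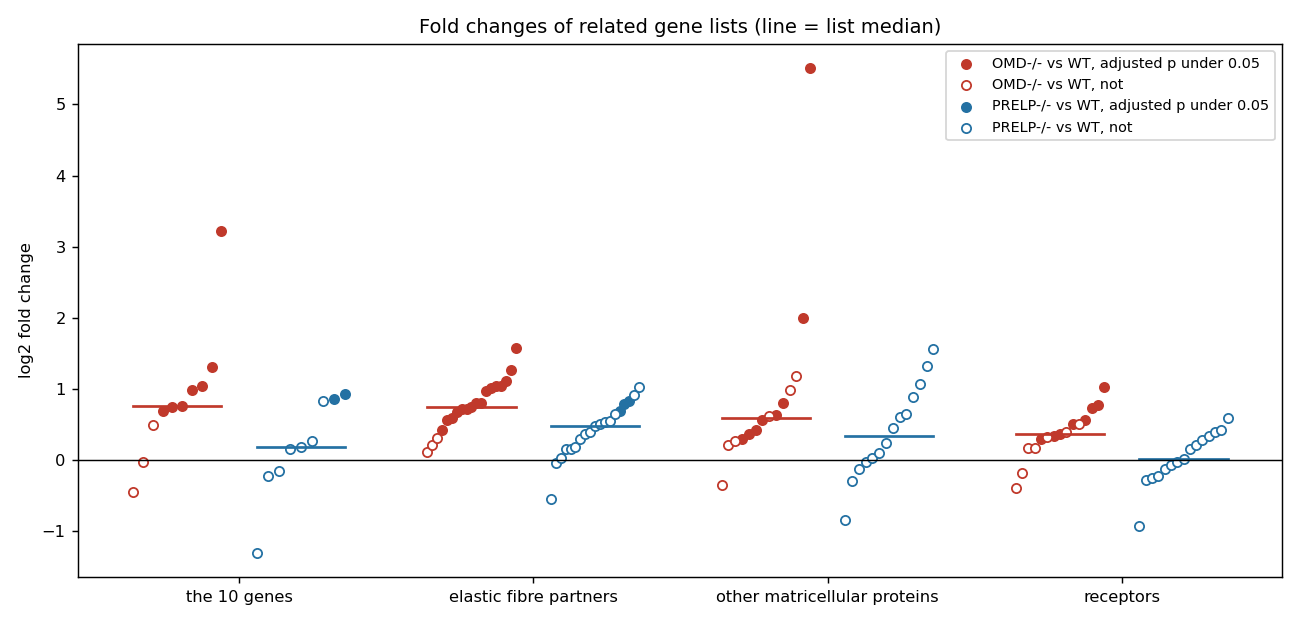
Log2 fold change (vertical) of each tested gene in OMD-/- against WT (red) and PRELP-/- against WT (blue), with the list median (line). Filled points have an adjusted p under 0.05. In OMD-/- they number 7 of the 10 genes, 16 of 19 elastic fibre partners, 8 of 14 other matricellular genes and 8 of 15 receptors, and in PRELP-/- 2, 3, 0 and 0. Over all tested genes 29.4% passed in OMD-/- and 7.29% in PRELP-/-.

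Fibroblast markers were higher in the same libraries as the 10 genes. The 10 genes summed to 2278 to 2443 CPM in WT, 4261 to 4923 CPM in OMD-/- and 2678, 4166 and 4073 CPM in PRELP-/- replicates 1 to 3. Fibroblast markers, most of their sum being the collagen genes Col1a1, Col1a2 and Col3a1 (named after their values were seen), summed to 8663 to 9817 CPM in WT, 18149 to 22057 in OMD-/- and 10268, 20094 and 19666 in PRELP-/-. Of the 10 markers, 6 rose in OMD-/- and 2 in PRELP-/- (14.3% and 1.4% of all tested genes passed as higher), and none fell. As a share of that sum, the 10 genes came to 24.7 to 28% in WT, 22.3 to 23.5% in OMD-/- and 26.1, 20.7 and 20.7% in PRELP-/-. Over the 7 markers that are not collagen genes, which summed to 2348 to 3220 CPM in WT, 3478 to 3917 in OMD-/- and 2205, 3792 and 3815 in PRELP-/-, the ratio of the 10 genes to the markers was instead higher in the knockouts, at 0.713 to 0.973 in WT, 1.23 to 1.26 in OMD-/- and 1.21, 1.10 and 1.07 in PRELP-/-. The direction of the share thus depended on the collagen genes in the sum, and this split of the list was made after the values were seen. Most of the sum of the 7 was in turn Dcn, at 1634 to 2440 CPM in WT, 2469 to 2687 in OMD-/- and 1645 to 2708 in PRELP-/-. The ratio to the 7 markers was therefore largely a ratio to Dcn, which passed in neither knockout. Sparc held 1375 of the 2678 CPM of the 10 genes in PRELP-/- replicate 1, so the ratio there rested largely on Sparc. In that library Spp1, Tnc, Postn, Thbs1, Thbs2 and Fbn1 lay below every WT library. Fn1 and Eln lay inside the WT range there, and Sparc and Tgfbi above it. Nuclear RNAs fell in both knockouts, from 1420 to 1684 CPM in WT to 290 to 354 CPM in OMD-/- and 200 to 250 CPM in PRELP-/- (4 of 4 called in each). Over all tested genes, 2522 of 16647 passed as lower in OMD-/- and 977 of 16581 in PRELP-/-. The log2 differences in OMD-/- were -4.80 for Firre, -4.77 for Meg3, -4.235 for Neat1 and -1.65 for Malat1. In PRELP-/- they were -5.02, -5.03, -4.57 and -2.21 in the same order. Urothelium markers summed higher in both knockouts, at 13885 to 18989 CPM in OMD-/- and 15871 to 26927 CPM in PRELP-/-. Their part in the result was not tested.

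**Figure D5:**
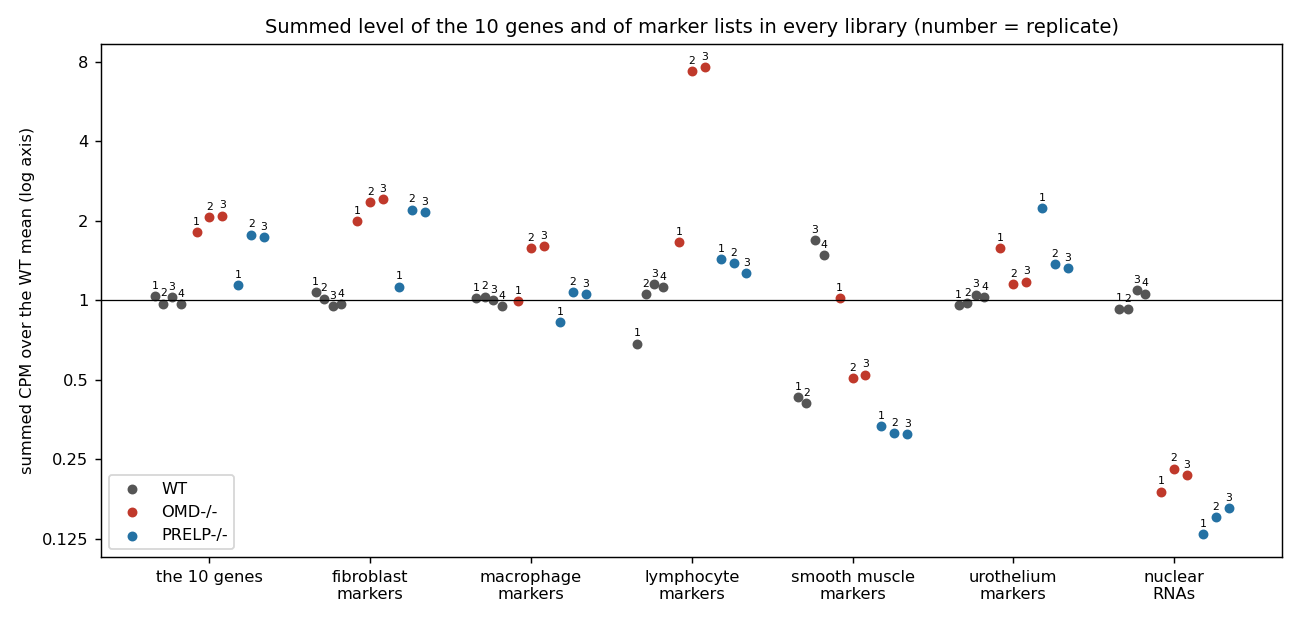
Summed CPM of the 10 genes and of marker lists in each library (points, numbered by replicate) divided by the mean over the 4 WT libraries (vertical, log axis). The sums of the 10 genes and of the fibroblast markers are both raised in all OMD-/- libraries and in PRELP-/- replicates 2 and 3. In PRELP-/- replicate 1 both sums are close to WT, although most of the 10 genes lie outside the WT range there.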

How the data were processed

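Bladder RNA of 4 WT, 3 OMD-/- and 3 PRELP-/- libraries was sequenced as poly(A)-selected, strand-marked libraries with molecular identifiers in the adaptors. The authors deposited 1 table per library holding the raw read count of each of 55536 genes, without normalization. Per the file headers the reads were aligned with HISAT2, while the submitters' processing notes list STAR 2.5.2b, featureCounts and DESeq2 and the builds GRCm38 and hg38, so the aligner is uncertain. Whether strand and identifiers were used in counting is not given in the sources used here. The authors also deposited DESeq2 tables that hold their own comparisons of each knockout with WT, and these were not used.

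Gene identifiers were matched to GENCODE vM21 (55536 of 55536), from which symbols, coordinates and merged exon lengths for RPKM were taken. Counts were fitted in R 4.3.3 with edgeR 4.0.16 (TMM, filterByExpr, robust quasi-likelihood test, two-sided, Benjamini-Hochberg over all tested genes, threshold 0.05), each comparison on its own 2 groups. SE is the fold change over the square root of F. Alternatives were DESeq2 1.42.0, limma 3.58.1 (voom with quality weights), other scalings, no filter, all groups in one fit, a replicate block, a Y chromosome covariate and leaving out each library. The script was tested on simulated data. The members and lists were chosen with earlier results of these data known. All 10 members are named, and from each related list the 4 genes with the smallest adjusted p in OMD-/- and every gene that passed in PRELP-/-, up to 4.

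Replicate numbers were checked for pairing by the correlation of deviations from group means. Same-numbered WT and OMD-/- libraries gave -0.108, 0.004 and -0.068 and WT and PRELP-/- libraries -0.276, 0.315 and -0.281, so they were not taken as pairs. OMD-/- and PRELP-/- gave 0.512, 0.396 and 0.379, all above 0.1, but replicate 2 with 3 gave 0.451 and 0.412, so the hint comes from the data and separates replicate 1 only.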

Additional observations from a re-analysis of the deposited data

How the results depend on the processing

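In OMD-/- against WT the 7 calls among the 10 genes stayed between 5 and 8 in every alternative run. For all genes the 4899 calls became 2485 with all 3 groups in one fit, 1658 with close libraries summed (an alternative chosen after seeing the data) and 3472 to 7228 in the other settings, and ranged from 2951 to 4850 when 1 library was left out. In PRELP-/- against WT the 2 calls became 4 with DESeq2, 5 with limma-voom, 1 with total counts, 0 with the replicate block (adjusted p = 0.224 for Sparc and 0.237 for Tgfbi) and 0 with close libraries summed, and ranged from 0 to 5 when 1 library was left out. The all-gene count of 1209 became 2485 with all 3 groups, 2542 with DESeq2, 6973 with limma-voom, 111 with the replicate block and 13 with close libraries summed, and ranged from 475 to 3807 when 1 library was left out. Between the knockouts the count of 0 members became 1 with DESeq2, 4 with limma-voom and 1 with the replicate block, and the all-gene count of 1 became 3 with all 3 groups, 0 with close libraries summed, 87 with DESeq2, 1012 with limma-voom, 5 with no filter, 43 with the replicate block and 4 with the Y covariate, and 1 to 36 when 1 library was left out. The ratio of Sparc to Fn1 in WT was 6.39 by RPKM and 2.07 by CPM, which exon length accounts for. The cause of the other changes was not tested.

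Signs that turned belonged to genes that did not pass the edgeR test of that comparison. In OMD-/- against WT, Eln was 0.22 with limma-voom and 0.065 with the Y covariate, and ranged from -0.18 to 0.16 when 1 library was left out. In PRELP-/- against WT, Tnc was -0.022 and Fbn1 -0.047 with total counts, and Thbs1 was 0.044 and Eln 0.073 with limma-voom. When 1 library was left out, Tnc ranged from -0.0030 to 0.49, Thbs1 from -0.39 to 0.077 and Fbn1 from -0.011 to 0.43. Between the knockouts, Fn1 was 0.025 and Tgfbi 0.033 with limma-voom, and with the Y covariate Fn1 was 0.38, Postn 0.044, Thbs1 0.30, Tgfbi 0.19, Fbn1 0.16 and Eln 0.35. The Y covariate nearly separates the knockouts, so no conclusion is drawn from the signs it turned. When 1 library was left out, Fn1 ranged from -0.38 to 0.089, Tgfbi from -0.20 to 0.057 and Eln from -0.30 to 0.036. With the replicate block, which drops WT replicate 4, the 7 calls of OMD-/- were again 7.

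Spp1 had 3 to 21 counts per library in WT and PRELP-/-, so a change there smaller than the counting error was not detectable at this depth. Counting intervals would cover only counting error.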
